A study of Mus musculus with 6 samples.

Results

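Genes whose symbol is Zfp followed by a number encode zinc finger proteins, most of them of the C2H2 kind, and were followed in mouse Ba/F3-N cells after exposure to N-arachidonoyl dopamine (NADA). They were chosen by symbol alone. Zfp36, Zfp36l1 and Zfp36l2, which encode CCCH proteins that bind AU-rich mRNA, were left out. Of 333 such symbols with a probe set of their own on the array, 232 had a probe set bright enough to be tested, out of 10526 genes tested in all. The other 101 lay under an intensity of 38.6, the median of all non-control probe sets, and 55 of these were under 20 in both groups. Of the tested symbols, Zfp862-ps is a pseudogene and Zfp652os an opposite-strand transcript. Symbols were those of the platform annotation.

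C2H2 zinc finger proteins bind DNA, and some RNA or proteins, through tandem fingers that each fold around a zinc ion. Many mammalian members also carry a KRAB domain, which recruits the corepressor TRIM28 and, through it, the histone methyltransferase SETDB1 and HP1 proteins to silence retroelements and imprinted loci. Such genes have multiplied by tandem duplication and often lie side by side in the genome. Other members act in ribosome assembly, mRNA processing, ubiquitin transfer or as activators at promoters.

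Ba/F3-N is Ba/F3, a mouse bone marrow pro-B line that normally depends on interleukin-3, transformed with the G12D form of NRAS, a small GTPase. Every sample therefore carries oncogenic NRAS, and no sample of untransformed Ba/F3 is compared here. In 1 group 3 samples received 1 µM NADA, an endogenous lipid that joins dopamine to arachidonic acid and acts on TRPV1 and cannabinoid receptors, and in the other 3 received an equal volume of vehicle. Both groups were collected 12 hours later, and total RNA of each sample was hybridised to an Affymetrix Mouse Genome 430 2.0 array. Cells grew in RPMI 1640 with fetal bovine serum. The labels name no clone, batch or separate culture, so the p-values rest only on how far these samples differ from each other, which may be technical spread. In such bulk RNA, fewer cells of a type and less RNA per cell cannot be told apart.

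Of 6 tested markers of the pro-B line, 5 rose and none fell, where 35.8% of all genes rose and 37.5% fell. The leukocyte antigen Ptprc went from a mean intensity of 4034 in vehicle to 6449 in NADA (0.68 on the log2 scale). The interleukin-3 receptor chains Csf2rb2 (2.35), Csf2rb (1.75) and Il3ra (0.51) rose, as did Cd79b (0.46). Kit, Ebf1, Pax5, Cd79a and Vpreb1 lay below it in both groups. Igll1 was 0.19 higher on the log2 scale but not called (adjusted p = 0.0715, limma). The T cell marker Cd3e stood at 46.3 in vehicle and 44.0 in NADA and was not called. Cd4 rose from 58.5 to 67.0 (0.20, adjusted p = 0.0258, limma), and the fibroblast markers Col1a1 and Col1a2 were under the limit. Bacterial poly-A RNAs, which are added before labelling, were 0.58 higher on the log2 scale in NADA, and the log2 ratio of 3' to 5' Actb probe sets was 1.06 ± 0.05 (SD, n = 3) in NADA against 0.67 ± 0.04 in vehicle. Neither pair of groups overlapped, with a two-sided exact permutation p = 0.1, the smallest that 3 against 3 arrays allow. The part of labelling and RNA quality in the results below was not tested.

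As a group the Zfp genes moved in both directions, with more of them higher than lower in NADA. Of the 232 tested, 99 rose, 57 fell and 76 were not called at an adjusted p under 0.05 (limma, Benjamini-Hochberg over all genes tested). That is 42.7% higher and 24.6% lower, where 35.8% of all genes tested were higher and 37.5% lower, 73.3% in either direction. Their median log2 fold change was 0.10, against 0.01 for all genes tested. The difference between the list and the other genes was not tested. The 3 NADA arrays did not overlap the 3 vehicle arrays for 167 members, or 72.0%, where the share was 75.9% over all genes. Large changes were few. Only 7 members, or 3.02%, were called at 2-fold or more upward, and 5, or 2.16%, downward, where the shares over all genes were 4.86% and 5.99%. Scaling each array to the poly-A RNAs moved the median of all genes to -0.57 and that of the Zfp genes to -0.48, and the calls became 13 higher and 162 lower among members, and 6.96% higher and 76.1% lower among all genes. Whether the members rose or fell in absolute amount therefore depends on that scaling, and the directions below are relative to the bulk of genes.

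**Figure D1:**
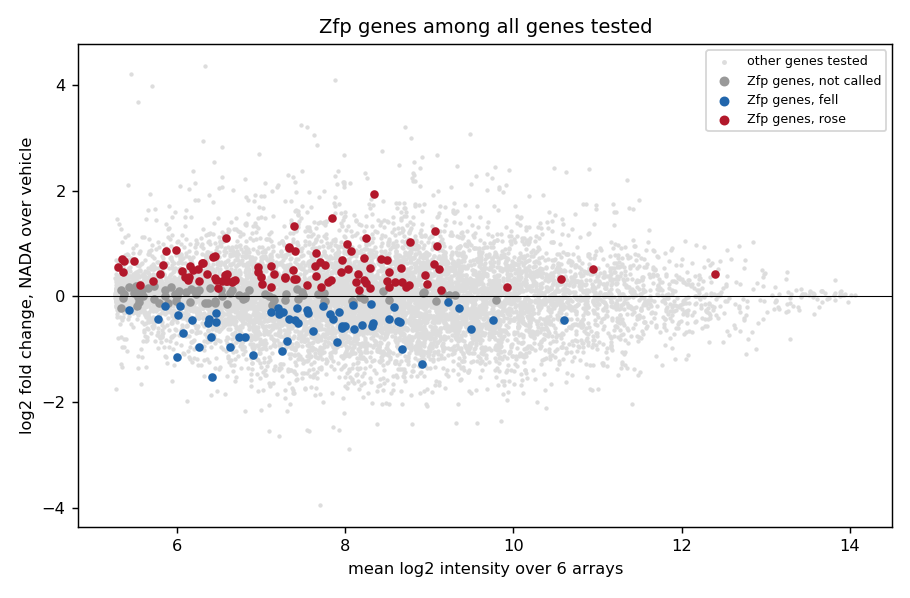
Log2 fold change of NADA over vehicle against mean log2 intensity over the 6 arrays, for 232 Zfp genes (red, rose; blue, fell; dark grey, not called) and all other genes tested (light grey). The Zfp genes lie mostly between -1 and 1, with Zfp945 at 1.94 and Zfp930 at -1.54 as the outermost points.

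The members were dimmer than most genes, with a median log2 intensity of 7.21 against 7.96 for all genes tested. Calls were more frequent among brighter members. Of the brightest 77 members, 51.9% rose and 31.2% fell, where 39.8% and 46.3% of all genes in that range did. Of the dimmest 78, 33.3% rose and 19.2% fell, against 25.2% and 14.6% of all genes there. The 5 members that rose although their vehicle mean lay under the dim limit, Zfp189, Zfp974, Zfp119a, Zfp759 and Zfp563, passed that limit through their NADA signal. Just inside the limit lay Zfp939 (42.4 in NADA and 39.0 in vehicle), Zfp653 (37.6 and 43.7) and Zfp759 (48.2 and 32.6). Just outside it were Zfp383 (43.6 and 34.1), Zfp334 (38.5 and 37.8) and Zfp821 (36.8 and 37.4).

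Promoter sequences of RefSeq (GRCm38.p6) were matched by symbol for 192 of the 232 members and for 8577 of all genes tested. Each window runs from 250 bases before to 50 bases after a transcription start. The windows of 4 members are shown, because they belong to the highest member, to another pair of members that rose at least 2-fold and share an ETS core with it, and to a member that fell at least 2-fold and holds E2F and CCAAT matches. They were chosen after the matches were seen, and a second window of Zfp367 is not shown. Of the 12 highest members 9 had a window, and the ETS core was found for 3, which are those shown. Zfp950, Zfp758 and Zfp729a also rose at least 2-fold, and their windows lack it. Of the 12 lowest, 10 had a window, and 0 held the ETS core, 2 an E2F motif and 5 CCAAT. Capitals mark matches, on either strand, to the motifs named after them, and sequences read 5′ to 3′.
Zfp945, GRCm38.p6, chr17:22867085-22867384, minus strand: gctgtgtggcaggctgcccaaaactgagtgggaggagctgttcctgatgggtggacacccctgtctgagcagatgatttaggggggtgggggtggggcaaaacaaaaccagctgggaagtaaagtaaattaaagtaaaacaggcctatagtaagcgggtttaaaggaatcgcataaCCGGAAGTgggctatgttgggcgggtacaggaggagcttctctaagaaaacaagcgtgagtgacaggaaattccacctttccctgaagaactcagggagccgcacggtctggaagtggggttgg
Zfp655, GRCm38.p6, chr5:145231492-145231791, plus strand: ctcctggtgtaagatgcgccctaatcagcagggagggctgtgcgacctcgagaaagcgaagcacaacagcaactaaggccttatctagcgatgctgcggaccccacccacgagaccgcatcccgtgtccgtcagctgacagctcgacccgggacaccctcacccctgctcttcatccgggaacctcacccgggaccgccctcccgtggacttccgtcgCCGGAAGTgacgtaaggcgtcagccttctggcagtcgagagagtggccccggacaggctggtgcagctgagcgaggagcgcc
Zfp458, GRCm38.p6, chr13:67268945-67269244, minus strand: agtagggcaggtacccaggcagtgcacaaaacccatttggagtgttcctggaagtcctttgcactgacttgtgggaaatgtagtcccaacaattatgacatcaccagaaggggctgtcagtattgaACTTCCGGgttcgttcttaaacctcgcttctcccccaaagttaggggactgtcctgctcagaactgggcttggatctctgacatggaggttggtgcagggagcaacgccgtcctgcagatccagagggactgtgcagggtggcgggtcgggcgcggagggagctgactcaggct
Zfp367, GRCm38.p6, chr13:64153150-64153449, minus strand: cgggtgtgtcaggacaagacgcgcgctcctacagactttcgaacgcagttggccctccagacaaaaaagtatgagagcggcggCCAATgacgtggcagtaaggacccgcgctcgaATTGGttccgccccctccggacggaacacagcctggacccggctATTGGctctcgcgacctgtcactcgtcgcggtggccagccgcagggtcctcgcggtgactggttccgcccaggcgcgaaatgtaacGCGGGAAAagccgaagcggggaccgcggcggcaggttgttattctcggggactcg

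In the Zfp945, Zfp655 and Zfp458 windows the capitals are CCGGAAGT, the core bound by ETS factors, or its reverse complement. In the Zfp367 window they are CCAAT, bound by NF-Y, and TTTCCCGC, an E2F motif, each on 1 strand or the other. The ETS core was found for 14 of 82 members that rose (17.1%), 3 of 48 that fell (6.25%) and 7 of 62 that were not called (11.3%), and for 9.90% of all genes tested. Over all genes, the share was 9.47% among those that rose and 12.0% among those that fell. CCAAT occurred for 58.5% of members that rose and 45.8% of those that fell, against 42.6% of all genes. An E2F motif (TTTCCCGC or TTTGGCGC) was held by 6.10% of members that rose, 4.17% of those that fell and 3.58% of all genes. Over all genes the split ran the other way, with 2.75% of genes that rose and 4.99% of those that fell. The interferon-stimulated response element occurred for 2.44% of members that rose and 2.08% of those that fell, against 3.63% of all genes, 4.62% of all that rose and 2.79% of all that fell. The remaining motifs searched were TGACGTCA (CRE, 4.69% of members and 3.71% of all genes) and those of YY1 (3.65% and 2.61%), NRF1 (4.17% and 2.53%) and ZNF143 (2.60% and 0.863%). CRE motifs were held by 1 of 82 members that rose (1.22%), 3 of 48 that fell (6.25%) and 5 of 62 not called (8.06%). Over all genes, the CRE share was 4.01% among those that rose and 3.83% among those that fell. NRF1 motifs were held by 3 of 82 (3.66%), 4 of 48 (8.33%) and 1 of 62 (1.61%) in the same order. The NRF1 share was 2.46% of all genes that rose and 2.91% of all that fell. No member window held overlapping matches of different motifs, and the 35 members with several windows had more chances of a match. The windows of members that rose were also poorer in CpG. Their median was 13.5 CpG, against 20 for members that fell and 21 for all genes. These matches are descriptions of letters and were not tested.

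Zfp945 had the highest log2 fold change of the members. Its intensities were 721, 629 and 567 in NADA and 176, 155 and 166 in vehicle. Its log2 fold change was 1.94 ± 0.07 (SE of the limma fit, 3 arrays per group, adjusted p = 7.08e-13). Its second probe set was at 1.26. Zfp950 read 388, 367 and 398 in NADA and 141, 137 and 133 in vehicle, a log2 fold change of 1.49 ± 0.05, with its other probe set at 1.15. Little is established about either protein. Zfp182 read 273, 247 and 277 in NADA and 112, 98.9 and 108 in vehicle (1.32 ± 0.06). Zfp655, which encodes an interactor of the exchange factor VAV1, read 880.4, 828 and 774 in NADA and 353, 343 and 352 in vehicle (1.24 ± 0.05). Both other probe sets of Zfp655 also rose, by 0.89 and 0.55. These 4 genes were picked among called members whose groups do not overlap, so a gap between the groups was required by the choice. Over all genes tested, the groups did not overlap for 75.9%.

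The next genes by size rose about 2-fold. Zfp458 read 466, 430 and 447 in NADA and 218, 195 and 211 in vehicle (1.10 ± 0.05). Zfp758 read 141, 145 and 135 in NADA and 60.7, 65.5 and 70.3 in vehicle (1.10 ± 0.07). Zfp729a read 634, 612 and 627 in NADA and 302, 301 and 322 in vehicle (1.02 ± 0.04). Its close relative Zfp729b read 387, 361 and 347 in NADA and 173, 182 and 200.5 in vehicle (0.98 ± 0.06). The probe sets used for this pair are of types x and s, which can bind several transcripts, so the signals of the pair may not be separate. Plain probe sets of Zfp729a rose by 1.42 and 1.09, and that of Zfp729b by 0.44. Zfp715 (0.95), Zfp40 (0.93, and 0.99 to 1.08 in its other 3 probe sets), Zfp979 (0.91) and Zfp874b (0.87 ± 0.08) completed the 12 highest. After scaling to the poly-A RNAs Zfp874b was no longer called (0.29, adjusted p = 0.0624).

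Zfp930 had the lowest log2 fold change. Its intensities were 45.9, 55.0 and 50.7 in NADA and 152, 144 and 143 in vehicle (-1.54 ± 0.08, adjusted p = 1.91e-11), and its second probe set stood at -0.91. Zfp367, a transcription factor described in erythroid cells, read 296, 294 and 342 in NADA and 766, 754 and 749 in vehicle (-1.29 ± 0.05). Both genes were picked among called members whose groups do not overlap, as was the case for 75.9% of all genes tested. Zfp428 read 42.7, 43.3 and 43.8 in NADA, near the dim limit, and 97.7, 92.0 and 97.2 in vehicle (-1.14 ± 0.07). Zfp961 read 87.5, 81.5 and 76.2 in NADA and 179, 173 and 178 in vehicle (-1.12 ± 0.06). Its other probe set, at the dim limit, was not called (-0.10, adjusted p = 0.367 in the fit over all probe sets). Zfp280b read 99.8, 106 and 112 in NADA and 229.8, 222 and 203 in vehicle (-1.04 ± 0.07).

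The other 7 of the 12 lowest ran from -0.997 for Zfp639 to -0.77 for Zfp296, which encodes an interactor of pluripotency factors. Of the 2 tested genes of the blood lineage list, Zfp296 fell and Zfp318 was not called by its brightest probe set. With the mean of its probe sets Zfp318 was called as lower (-0.19, adjusted p = 0.00955, limma). Over all genes tested, 37.5% fell. Zfp639 read 300.3, 299.8 and 272 in NADA and 616, 545 and 579.7 in vehicle. Zfp850 (-0.96), Zfp566 (-0.96), Zfp275 (-0.87), Zfp469 (-0.84) and Zfp213 (-0.77) lay between. In each of the 24 genes at both ends, the NADA and vehicle arrays did not overlap, as the choice of these genes required. Of the 24, 9 had further probe sets above the dim limit, and in 8 of these all of them were called the same way. The exception was Zfp961. These genes were picked for large called changes, and 73.3% of all genes tested were called. Of all 85 members with several probe sets above the limit, every probe set was called the same way in 35. Further probe sets read the same arrays, so they are not separate samples.

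**Figure D2:**
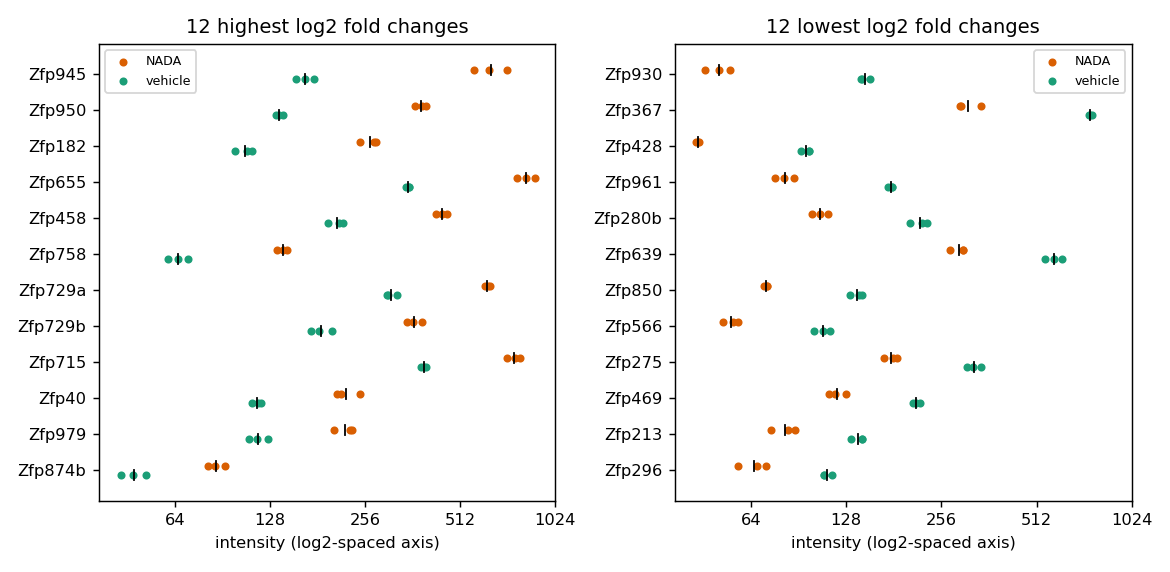
Intensity of every array (log2-spaced axis; orange, NADA; green, vehicle; black bars, group means, n = 3) for the 12 Zfp genes with the highest and the 12 with the lowest log2 fold changes. The genes were chosen for groups that do not overlap, and Zfp945 shows the widest gap, with NADA arrays at 567 to 721 and vehicle arrays at 155 to 176.

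By the brightest probe set of each gene, the brightest members moved by less than 1.5-fold. Zfp622, a factor of 60S ribosomal subunit maturation, read 6380.2, 6257 and 6151 in NADA and 4624, 4674 and 4714 in vehicle. All NADA arrays lay above all vehicle arrays, with a log2 fold change of 0.42 ± 0.03 (adjusted p = 2.00e-10) and values of 0.36 and 0.42 in its other probe sets. Zfp445, a KRAB protein that guards imprints, read 2422, 2340.4 and 2296 in NADA and 1638, 1673 and 1640 in vehicle (0.51 ± 0.03). The other probe sets of Zfp445 stood at 0.23 and 0.66. Zfp91, a ubiquitin ligase, read 1342, 1313 and 1333 in NADA and 1850.3, 1792 and 1780.3 in vehicle (-0.44 ± 0.03), and its other 3 probe sets ranged from -1.25 to -0.47. Zfp330 rose by 0.32 ± 0.04 and Zfp871 by 0.17 ± 0.04. With the mean of its 3 probe sets, which ran from -0.10 to 0.24, Zfp871 was not called (0.10, adjusted p = 0.148, limma). Scaled to the poly-A RNAs, Zfp622, Zfp330 and Zfp871 turned to -0.15, -0.26 and -0.41, and Zfp445 to -0.067.

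Members with a known part in ribosome production and translation split. Zfp593, the relative of a yeast 60S export factor, read 87.8, 78.6 and 91.7 in NADA and 143, 147 and 149 in vehicle (-0.77 ± 0.07), on a probe set of type x, and its other probe set stood at -0.63. Zfp598, a ubiquitin ligase that senses collided ribosomes, read 264, 262 and 263 in NADA and 405, 387 and 378 in vehicle (-0.57 ± 0.05). Zfp622 rose, as given above. So 1 of 3 rose and 2 fell. Both ubiquitin ligases tested, Zfp91 and Zfp598, fell. Over all genes tested, 35.8% rose and 37.5% fell, and neither list was tested as a set.

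Of 8 members that bind RNA or act in mRNA processing, 1 rose, 2 fell and 5 were not called by the brightest probe set. Over all genes tested, 35.8% rose and 37.5% fell. Zfp207 is among the 2 that fell, but its probe sets were split, as given below. Zfp326, a subunit of a complex that couples transcription and splicing, read 269.6, 259 and 285 in NADA and 391, 384 and 378 in vehicle (-0.50 ± 0.05). Zfp346, a binder of double-stranded RNA, read 332, 358 and 306 in NADA and 274, 282 and 281 in vehicle (0.25 ± 0.06, adjusted p = 8.98e-04). It was not called when its probe sets were averaged (0.10, adjusted p = 0.0911). The members not called were Zfp106 (-0.07), Zfp318 (-0.05), Zfp385a (-0.04), Zfp638 (0.02) and Zfp830 (-0.06). These values are those of the brightest probe set. With the mean of its probe sets Zfp106 was called as lower (-0.44, adjusted p = 1.88e-06, limma), and 3 of its 4 probe sets fell, the dimmest to -0.92. Zfp318 was also called as lower with that mean (-0.19, adjusted p = 0.00955, limma). Zfp638 was called as higher after quantile normalization (0.10, adjusted p = 0.0259, limma).

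Zfp207, which encodes a spindle assembly protein, fell by its brightest probe set but its 6 probe sets were split. The brightest read 754, 753 and 716 in NADA and 984, 998 and 1038 in vehicle (-0.44 ± 0.04). The next in brightness went the other way, with 681, 661 and 632 in NADA and 426, 451 and 469 in vehicle (0.55). The following 3 also rose, by 0.66, 0.60 and 1.13, and the dimmest fell by 0.27 on the log2 scale. The groups overlapped in the dimmest probe set and in no other. Averaging all 6 gave 0.37, and the brightest plain probe set gave 0.55, so no single direction can be given for this gene. Among 85 members with several probe sets above the limit, only Zfp207, Zfp277, Zfp444 and Zfp84 had probe sets called in both directions. In 35 of the 85, every probe set was called the same way.

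**Figure D3:**
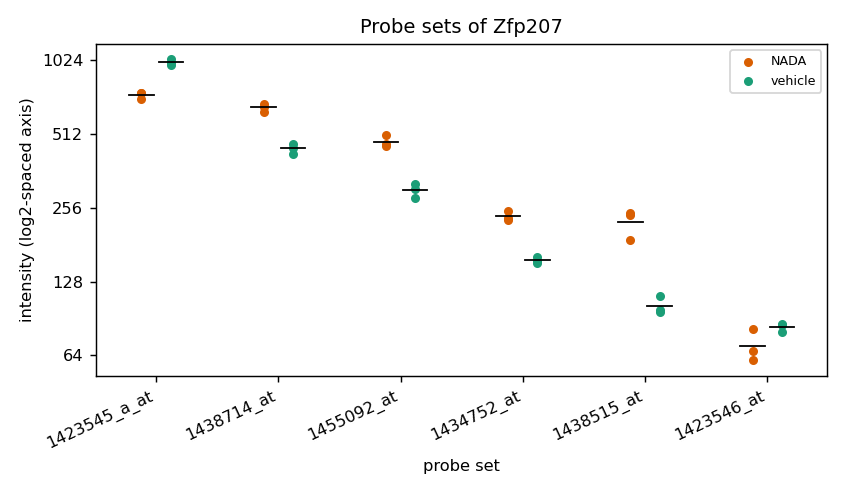
Intensity (log2-spaced axis) of the 6 probe sets of Zfp207 in each array (orange, NADA; green, vehicle; black bars, group means, n = 3). In 4 probe sets NADA lies above vehicle, and in the brightest and the dimmest it lies below.

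Of 7 members that silence imprinted loci and retroelements, 4 were tested. Zfp445 rose and 3 fell, where 37.5% of all genes fell, and the list was not tested. Zfp568, a KRAB repressor of a placental Igf2 transcript, read 234, 231 and 199 in NADA and 356, 349 and 320.1 in vehicle (-0.63 ± 0.06). Zfp932, which acts on endogenous retroviruses, read 240.4, 256 and 233 in NADA and 349.7, 349 and 371 in vehicle (-0.55 ± 0.05). Zfp809, which recruits TRIM28 to retroviral primer binding sites, read 228, 216 and 217 in NADA and 275, 261 and 277 in vehicle (-0.30 ± 0.05). Zfp57 (26.1 in NADA and 27.9 in vehicle), Zfp708 (34.7 and 19.4) and Zfp819 (under 20 in both) were dim and did not enter the test.

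The corepressor machinery that KRAB proteins use holds no Zfp gene. Of 21 listed genes 17 were tested, and 76.5% of these (13) fell and 17.6% (3) rose, where 37.5% and 35.8% of all genes did. The list was not tested as a set, and the median log2 fold change of the 17 was -0.36. Trim28 itself went from a mean of 3213 in vehicle to 2122 in NADA (-0.60 ± 0.04) and Setdb1 from 239 to 188 (-0.35 ± 0.05). The HP1 gene Cbx5 fell by 1.66 on the log2 scale, Cbx1 by 0.47 and Cbx3 by 0.25. The deacetylases Hdac2 (-0.81) and Hdac1 (-0.35) and Pphln1 (-0.70), a subunit of the HUSH complex, also fell. So did Uhrf1 (-1.99) and Dnmt1 (-1.01), which maintain DNA methylation, Sumo3 (-0.51), Smarcad1 (-0.36) and Mphosph8 (-0.20). Atf7ip, a partner of SETDB1, rose by 0.66 ± 0.04, Chd3 by 0.75 ± 0.05 and Morc3 by 0.19 ± 0.05, and Chd4 stood at 0.03 (adjusted p = 0.532, limma).

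Activators that bind promoters changed little by the brightest probe set of each gene. Among those tested 33.3% rose and 16.7% fell, where 35.8% and 37.5% of all genes did. Of 6 tested, Zfp281 (0.12 ± 0.05, adjusted p = 0.0355) and Zfp384 (0.11 ± 0.04, adjusted p = 0.0341) rose and Zfp410 (-0.11 ± 0.05, adjusted p = 0.0363), an activator of Chd4, fell. Each of these calls was lost in limma fits without certain arrays. Zfp281 was not called without NADA replicate 1 (0.10), vehicle replicate 1 (0.09) or vehicle replicate 3 (0.12). Zfp384 (0.07 to 0.10) and Zfp410 (-0.12 to -0.08) were not called without NADA replicate 1, vehicle replicate 2 or vehicle replicate 3. Zfp64 (0.04), Zfp148 (-0.08) and Zfp335 (0.12) were not called by that probe set. Of the 6 probe sets of Zfp148, 2 fell (-0.31 and -0.34), and the mean of all 6 was called as lower (-0.13, adjusted p = 0.0184, limma). Without NADA replicate 3, Zfp335 was called as higher (0.18, adjusted p = 0.0240, limma). The other probe set of Zfp410 fell to -0.23. Zfp42, a marker of pluripotent cells, read 3.65 in NADA and 3.61 in vehicle and was not tested.

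Among members that join chromatin or corepressor complexes, 2 of 9 rose, 3 fell and 4 were not called. That is 22.2% higher and 33.3% lower, where 35.8% and 37.5% of all genes were, and the list was not tested. Zfp217, a partner of the LSD1 and CtBP corepressors, read 323, 319 and 304 in NADA and 235, 205 and 219 in vehicle (0.52 ± 0.06), and turned to -0.053 when scaled to the poly-A RNAs. Zfp219 rose by 0.27 ± 0.07. Zfp131 read 575, 597 and 573 in NADA and 856, 881 and 949 in vehicle (-0.62 ± 0.04). Zfp518b, a partner of the histone methyltransferases G9a and GLP, read 155, 143 and 141 in NADA and 219, 198 and 204 in vehicle (-0.50 ± 0.06). Zfp451, a SUMO ligase, stood at -0.15 ± 0.04. Zfp592 (-0.09), Zfp608 (0.06), Zfp644 (0.08) and Zfp687 (-0.05) were not called. Zfp644 was called as higher after quantile normalization (0.14, adjusted p = 0.0128, limma), by its brightest plain probe set (0.14, adjusted p = 0.0249) and without vehicle replicate 3 (0.13, adjusted p = 0.0356). Of the blood lineage list, Zfp318, known from the splicing of IgD transcripts in B cells, was not called by its brightest probe set. Zfp423 and Zfp521, which inhibit the B cell factor EBF1, were dim in both groups (5.35 and 16.7 in vehicle).

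**Figure D4:**
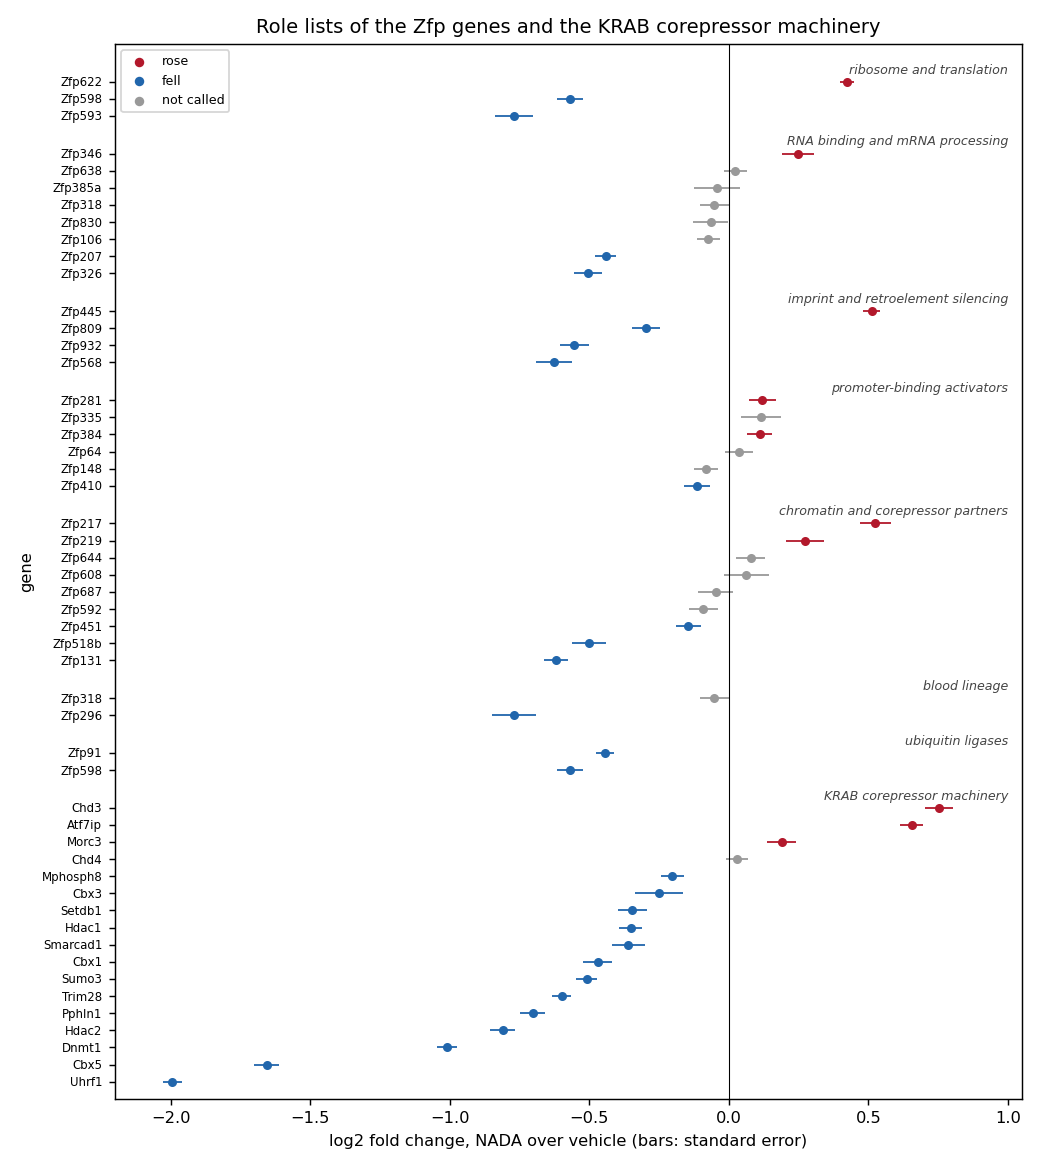
Log2 fold change of NADA over vehicle (points; bars, standard error of the limma fit; red, rose; blue, fell; grey, not called) for the brightest probe set of the tested genes of each role list. The KRAB corepressor genes run from Uhrf1 at -1.99 to Chd3 at 0.75, while the promoter-binding activators stay between -0.11 and 0.12.

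Many Zfp genes lie next to each other, and some neighbours moved the same way. Neighbours were taken from RefSeq gene order as Zfp genes with at most 2 other protein-coding genes between them, and 82 of the tested members lay in 15 runs with at least 3 tested members. Over all genes tested, 35.8% rose and 37.5% fell. In the 15 runs 51.2% of members rose and 15.9% fell, while of the 150 members outside them 38.0% rose and 29.3% fell. Neighbours share sequence and can share probes, so they are not independent, and the difference was not tested.

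The run from Zfp677 to Zfp758 had 12 tested members, of which 10 rose and none fell by the brightest probe set. Their median was 0.65, and over all genes tested 35.8% rose and 37.5% fell. Zfp677 read 352, 363 and 369.8 in NADA and 191, 209 and 202 in vehicle (0.85 ± 0.05). The adjacent Zfp51, Zfp53 and Zfp52 rose by 0.50, 0.54 and 0.62. Zfp52 read 686, 652 and 638 in NADA and 426, 434 and 428 in vehicle. Zfp994 read 278, 263 and 259 in NADA and 164, 148 and 145 in vehicle (0.81 ± 0.06). Zfp229 (0.76), Zfp943 (0.68), Zfp995 (0.68), Zfp948 (0.58) and Zfp758 (1.10) rose as well. The 2 members not called were Zfp942, whose NADA values of 348, 347 and 400 overlapped vehicle values of 320, 346 and 349 (0.11, adjusted p = 0.113, limma), and Zfp944 (0.05, adjusted p = 0.487, limma). The other probe set of Zfp942 was called as lower (-0.28), and the other 2 of Zfp944 as higher (0.31 and 0.35). Scaled to the poly-A RNAs, all log2 fold changes fall by the same 0.58.

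Over all genes tested, 35.8% rose and 37.5% fell. The run from Zfp712 to Zfp493, also with 12 tested members, had 7 that rose, 1 that fell and 4 that were not called. Zfp458, Zfp729a, Zfp729b and Zfp874b, given above, belong to it, as do Zfp759 (0.55), Zfp712 (0.30) and Zfp87 (0.30). Of these, Zfp759 had a vehicle mean under the dim limit and passed it through its NADA signal. Zfp748 in the same run read 149, 151 and 136 in NADA and 209, 185 and 202 in vehicle (-0.45 ± 0.06). The run from Zfp871 to Zfp563 had 5 of 6 higher, and none lower. Among the 5 is Zfp563, which passed the dim limit through its NADA signal. All 3 members rose in the runs from Zfp329 to Zfp128 (0.30 to 0.59) and from Zfp397 to Zfp24 (0.36 to 0.45).

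Other runs were mixed or lower. From Zfp398 to Zfp862-ps, 4 of 7 fell and none rose, with a median of -0.23, where 37.5% of all genes fell and 35.8% rose. Zfp282 read 45.3, 51.9 and 44.8 in NADA and 61.6, 63.4 and 65.6 in vehicle (-0.43 ± 0.08), and Zfp777 (-0.42), Zfp862-ps (-0.35) and Zfp398 (-0.23) fell too. From Zfp84 to Zfp566, 3 of 9 rose and 4 fell by the brightest probe set. Neighbours there differed widely, with Zfp82 at 0.64 next to Zfp566 at -0.96 among tested members. Zfp84 is counted among the 3, but of its 3 probe sets, which ran from -0.16 to 0.46, 1 rose and 1 fell. Zfp850 (-0.96) stood in a run whose other tested members, Zfp626 (0.63), Zfp59 (0.33) and Zfp974 (0.66), rose. Of these, Zfp974 had a vehicle mean under the dim limit and passed it through its NADA signal. Zfp961 (-1.12) lay in 1 run with Zfp617 (0.70 ± 0.05) and Zfp882 (0.22). None of 5 members from Zfp180 to Zfp94 was called (limma), and their values ran from -0.19 to 0.14.

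**Figure D5:**
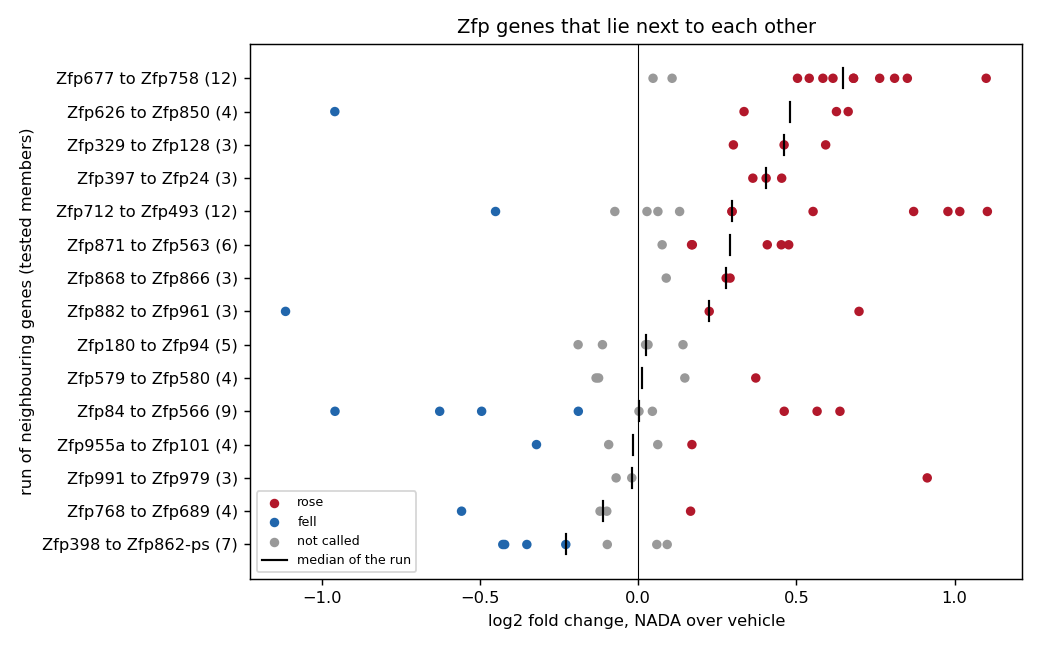
Log2 fold change of each tested Zfp gene (points; red, rose; blue, fell; grey, not called) in the 15 runs of neighbouring genes, each by its brightest probe set, ordered by the median of the run (black bars), with the number of tested members in brackets. The run from Zfp677 to Zfp758 lies wholly above 0, and the run from Zfp398 to Zfp862-ps has the lowest median, -0.23.

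Related families join C2H2 fingers to other domains. Of 33 Zbtb genes, which carry a BTB domain, 12 rose (36.4%) and 10 fell (30.3%), with a median of 0.03, where 35.8% of all genes rose and 37.5% fell. Of 15 Zscan and Zkscan genes, which carry a SCAN domain, 8 rose (53.3%) and 3 fell (20%), with a median of 0.19. Neither family was tested against the Zfp genes. Another 27 probe sets are paired with several genes that include a Zfp symbol. They name no single gene and stayed out of the counts. Of these, 16 passed the dim limit, and 2 rose and 8 fell in the limma fit over all probe sets. The shares of all probe sets in that fit were not taken, so these counts have no baseline.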

How the data were processed

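Biotin-labelled RNA from 3 NADA and 3 vehicle samples of Ba/F3-N cells was hybridised, per the labels' protocols. The authors deposited linear intensities for 45101 probe sets. Per the submitters' processing notes MAS5 and RMA were used, with no word on the part each had in these values. Array medians lay between 37.9 and 39.1, so the intensities were used as deposited after log2, and a shift shared by most genes is not visible in them. For arrays, their number limits the precision.

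The 64 control probe sets were set aside. Of the rest, 34945 were paired with 1 gene, 932 with several and 9160 with none in the platform annotation, and RefSeq (GRCm38.p6) changed 0 symbols. Probe sets with a mean log2 under 5.27 were left out, and the brightest was kept per gene. Groups were compared with limma 3.58.1 in R 4.3.3 (eBayes with an intensity trend, two-sided). "Rose" and "fell" mean an adjusted p under 0.05. The steps were tested on simulated data of 10526 genes for this comparison, where 46% of 1.2-fold, 80% of 1.3-fold, 94% of 1.5-fold and 100% of 2-fold changes were recovered. Plots used matplotlib 3.10.9.

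The members, lists, tests and alternatives were chosen with earlier results of these data known, and the runs and promoter motifs after the values were seen. Named are the 12 highest and 12 lowest log2 fold changes among called members whose groups do not overlap, the 5 brightest, all tested members of the role lists, the members next to the dim limit and called genes of the KRAB corepressor machinery. Members of runs and other genes were named after their values were seen. Alternatives covered normalization, low values, the dim filter, the probe set per gene, the spread model, the threshold, a replicate block and the omission of single arrays. No protein sequences were used, so KRAB and finger counts were not assigned.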

Additional observations from a re-analysis of the deposited data

How the results depend on the processing

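The counts of 99 members higher and 57 lower and their median log2 fold change of 0.10 kept within 1.5 times, or within 1 SD between arrays (0.07), in all alternatives except 3. That SD is the median over single members and not the spread of a median over 232 genes. Scaled to the poly-A controls, 13 members were higher and 162 lower, and the median was -0.48. With the dim filter at the 70th percentile 131 members were tested and 63 were higher. With at least 1.5-fold required, 30 were higher and 18 lower, fewer by construction. Among the alternatives that kept within these bounds, the median of the members was 0.055 with a floor of 50 before log2. Without the dim filter it was 0.065, and that of all genes 0.02. Without each array in turn, 94 to 101 members were higher, 53 to 57 lower, and the median ran from 0.07 to 0.11. With the replicate block, 100 members were higher and 58 lower. The labels do not say whether same-numbered samples were paired. The deviations of same-numbered arrays correlated at 0.16, -0.10 and 0.02, which cannot settle it.

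Of 1010 values of the 57 named members under alternatives, 937 kept direction and call, 42 lost the call, 15 gained it and 16 changed direction. Scaled to the poly-A controls, these turned: Zfp622 -0.15, Zfp445 -0.067, Zfp330 -0.26, Zfp871 -0.41, Zfp346 -0.33, Zfp638 -0.56, Zfp64 -0.54, Zfp281 -0.46, Zfp335 -0.46, Zfp384 -0.47, Zfp217 -0.053, Zfp219 -0.31, Zfp608 -0.51 and Zfp644 -0.50. Zfp207 turned to 0.37 with the mean of its probe sets and to 0.55 without probe set types x, s and a. Quantile normalization took Zfp410 to -0.03 (adjusted p = 0.56, limma), and the cause was not tested. The 3 arrays per group and signals near the dim limit set the precision.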
